A study of Mus musculus with 6 samples.

Results

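The genes described here build and run the expression system of the mitochondrial genome. They are the mitochondrial ribosomal proteins (symbols Mrpl and Mrps followed by a digit), the mitochondrial aminoacyl-tRNA synthetases (symbols ending in ars2) and 10 genes chosen by symbol for mtDNA transcription, RNA stability, replication and translation elongation. The rule found 103 of the 21540 records of the authors' deposited table. They were 48 Mrpl symbols (large ribosomal subunit), 30 Mrps symbols (small subunit), 17 synthetases and 8 of the 10 genes chosen by symbol. Subunits were assigned by symbol alone, which need not give the true place of every protein. Of the 103 records, 102 were marked as tested and 1, Mrps34, as failed, and all 102 reached 1 FPKM in the higher group. Slirp and Twnk, the remaining symbols of the rule, stand under their older names and are given separately.

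RNA came from the nucleus accumbens, the ventral striatum, of C57BL/6 mice. Cocaine (20 mg/kg, intraperitoneal) or saline was injected once a day for 7 days, and both groups, of 3 libraries each, are labelled as 4 h into withdrawal. For the saline libraries the labels' protocol describes cocaine, while the treatment label says saline, which set their group. The sources used here do not give age or sex, or say whether a library pools animals. For each gene the authors' deposited table holds an FPKM value (fragments scaled by transcript length and library size) for either group, a log2 fold change of cocaine over saline, and a p-value and q-value, but no value per library. No spread between libraries can be shown, the read depth is unknown, and the variation behind the deposited p-values may be technical.

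Mitochondria keep a small circular genome that encodes core subunits of the respiratory chain together with the ribosomal and transfer RNAs needed to translate them. Every protein of the system that copies, transcribes and translates it is encoded in the nucleus, made in the cytosol and imported. In neurons, whose firing and synaptic transmission draw heavily on oxidative phosphorylation, this system supplies part of the ATP-making machinery.

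The promoters of 3 of these genes show what their sequences share and do not share. NRF1 and the ETS factor GABP are known activators of nuclear genes for mitochondrial proteins. The sequences are the 250 bases before the RefSeq start, from GRCm38.p6, a later build than the authors'. Capitals mark matches, on either strand, to CCGGAAG (the core ETS motif that GABP binds) or to the NRF1 motif, which reads GCGCA, then any base, then GCGC. Tfam is shown as the mtDNA packaging and transcription factor, Mrpl12 as a large-subunit protein with an NRF1 match, and Lars2 as the single member called between the groups.
Tfam, chr10:71238045-71238294, minus strand: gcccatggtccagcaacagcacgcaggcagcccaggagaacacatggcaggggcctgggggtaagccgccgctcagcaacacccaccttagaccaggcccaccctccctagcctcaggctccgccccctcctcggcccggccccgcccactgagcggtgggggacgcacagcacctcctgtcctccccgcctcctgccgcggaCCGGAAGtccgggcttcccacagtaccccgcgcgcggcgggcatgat
Mrpl12, chr11:120484387-120484636, plus strand: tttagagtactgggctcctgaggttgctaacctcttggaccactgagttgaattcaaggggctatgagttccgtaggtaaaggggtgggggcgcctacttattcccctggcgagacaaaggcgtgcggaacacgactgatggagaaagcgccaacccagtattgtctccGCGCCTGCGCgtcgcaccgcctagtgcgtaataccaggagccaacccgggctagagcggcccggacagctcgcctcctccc
Lars2, chr9:123366677-123366926, plus strand: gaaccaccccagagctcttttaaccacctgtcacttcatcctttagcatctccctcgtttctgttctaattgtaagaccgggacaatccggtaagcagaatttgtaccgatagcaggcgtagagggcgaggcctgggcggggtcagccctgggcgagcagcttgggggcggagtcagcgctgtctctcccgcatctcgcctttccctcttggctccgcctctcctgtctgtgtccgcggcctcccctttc
Tfam held 1 ETS match, Mrpl12 held 1 NRF1 match, and Lars2 held 0 of either in this window. A match is a description of letters and shows no binding.

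Promoters were found for 89 members. A gene was counted if any of its promoters held the motif. The ETS motif stood in 23 of the 89 (25.8%), against 14.8% of the 8908 matched genes tested here. Counted by single promoter, which is another unit, 6.91% of all 32851 promoters held it. Cytosolic ribosomal protein genes held it in 16 of 57 (28.1%) and nuclear respiratory chain genes in 13 of 69 (18.8%). The NRF1 motif stood in 9 members (10.1%), against 9.13% of the tested genes, and in 3.74% of all single promoters. Those 9 were 8 large-subunit genes (Mrpl9, Mrpl12, Mrpl17, Mrpl30, Mrpl32, Mrpl39, Mrpl44 and Mrpl45) and the small-subunit gene Mrps21. Mrpl17 was the 1 gene among them that held both motifs, and the matches were not tested against chance. Most of the 89 members, Lars2 among them, held neither motif. Of 14 synthetases with a promoter found, 0 held the NRF1 motif and 3 the ETS motif.

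In the cocaine group, 1 of the 102 tested members rose and 0 fell at the deposited q < 0.05. The riser was Lars2, the mitochondrial leucyl-tRNA synthetase, which charges mitochondrial leucine tRNAs. In the authors' deposited table it went from 233 to 275 FPKM (1.18-fold, log2 fold change 0.24, p and q listed as 0). In all, 16 tested genes of at least 1 FPKM had a p listed as 0. Among them were Lars2 and the 9 tested mRNAs encoded by mtDNA. In bulk tissue, more cells of a type and more RNA per cell cannot be told apart. Over 12819 tested genes of at least 1 FPKM the same threshold was passed by 1.44%, with 0.608% higher and 0.827% lower. The members' count is near that background.

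By the authors' test at an unadjusted p under 0.05, Lars2 again was the single member called, against 6.52% of all tested genes (2.3% higher and 4.22% lower). The smallest deposited p of any other member was 0.0907, for Mrpl36. Of the 102 members 4 (3.92%) had a deposited p under 0.2, against 16.6% of all tested genes. Their deposited log2 fold changes ran from -0.24 (Pars2) to 0.29 (Mrpl47), and 78 of 102 (76.5%) lay within 0.1 of 0, against 66.5% of all tested genes. The median was -0.03, beside -0.02 for all tested genes, and 33 members (32.4%) lay above 0, against 40.7%. These shares describe the genes, which are not replicates.

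**Figure D1:**
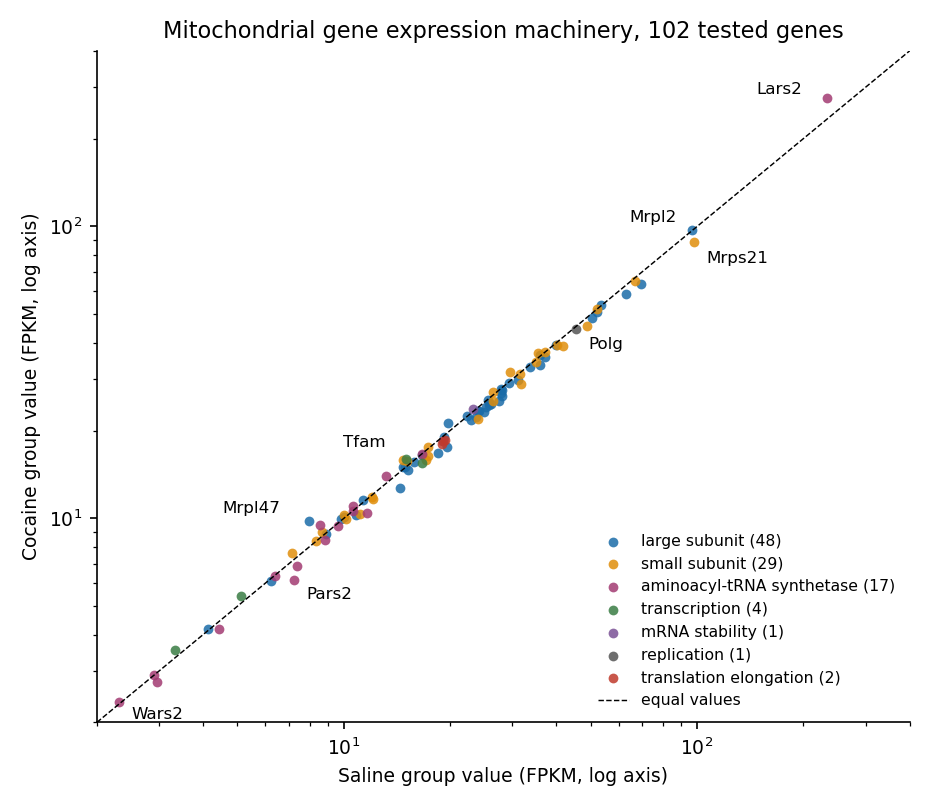
Group values of the 102 tested genes in FPKM on log axes, saline on the x axis and cocaine on the y axis, coloured by role, with the number of genes in brackets. Each point is 1 gene and the dashed line marks equal values; the points lie close to it, and Lars2 (233 and 275 FPKM) stands at the top, apart from all others.

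**Figure D2:**
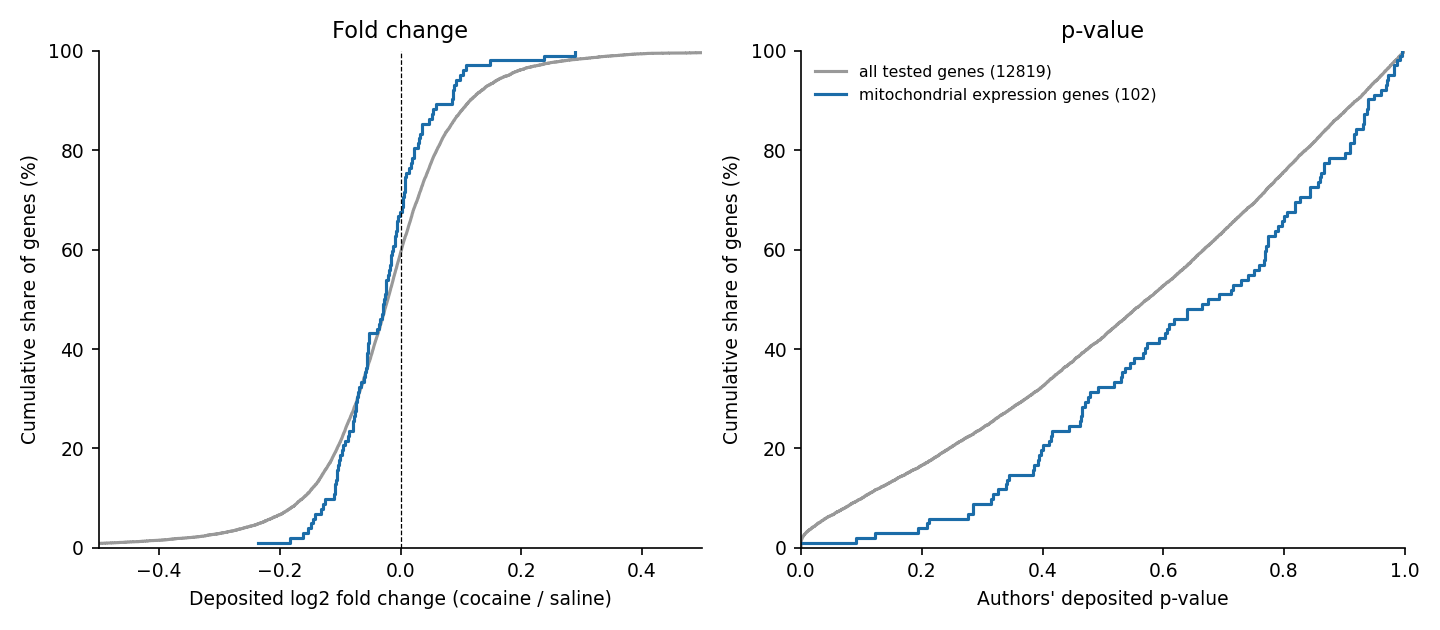
Cumulative share of genes (%) by deposited log2 fold change (left, shown from -0.5 to 0.5) and by deposited p-value (right), for the 102 tested mitochondrial expression genes and all 12819 tested genes of at least 1 FPKM. The genes described here are steeper around 0 on the left, with 76.5% against 66.5% within 0.1 of 0, and fewer have a low p on the right.

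The large subunit holds the centre where peptide bonds form. The 48 members with an Mrpl symbol had deposited log2 fold changes from -0.18 to 0.29 with a median of -0.04, and 12 lay above 0. By the authors' test 0 of the 48 passed at q < 0.05, against 1.44% of all tested genes. At an unadjusted p under 0.05 there were 0, against 6.52%. Mean FPKM of the 2 groups ran from 4.16 (Mrpl1) to 97.1 (Mrpl2), with a median of 23.9. No order among neighbouring levels could be tested without values per library.

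Among the abundant large-subunit genes, Mrpl2, the homologue of a bacterial protein of the peptidyl transferase region, is listed at 96.8 FPKM with saline and 97.3 FPKM with cocaine in the authors' deposited table. The authors' table puts Mrpl52 at 69.5 and 63.5 FPKM (log2 fold change -0.13, p = 0.123) and Mrpl17 at 63.0 and 58.7 FPKM (-0.10, p = 0.392). At the low end of the authors' table stood Mrpl1, with 4.13 and 4.19 FPKM, and Mrpl35, with 6.22 and 6.11 FPKM. Levels differed far more from gene to gene than between the groups.

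The lowest of the authors' log2 fold changes in the large subunit were those of Mrpl36 (14.4 and 12.7 FPKM, -0.18, p = 0.0907), Mrpl14 (19.6 and 17.5 FPKM, -0.16, p = 0.284) and Mrpl34 (18.5 and 16.8 FPKM, -0.14, p = 0.209). All 3 have bacterial counterparts. The highest in the authors' table were those of Mrpl47 (7.99 and 9.77 FPKM, 0.29, p = 0.193), Mrpl21 (19.7 and 21.3 FPKM, 0.11, p = 0.478) and Mrpl19 (11.3 and 11.6 FPKM, 0.03, p = 0.818). Mrpl47 had a larger deposited log2 fold change than Lars2 and did not pass. Its level was far lower than that of Lars2.

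Mrpl12, whose promoter is printed above, is a stalk protein of the large subunit that has also been described as a partner of the mitochondrial RNA polymerase. The authors' deposited table gives it 25.3 FPKM with saline and 24.1 FPKM with cocaine (log2 fold change -0.07, p = 0.397), and it did not pass.

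The small subunit decodes the mRNA. The 29 tested members with an Mrps symbol had deposited log2 fold changes from -0.15 to 0.10 with a median of -0.03, and 11 lay above 0. By the authors' test 0 of 29 passed at q < 0.05, against 1.44% of all tested genes. At an unadjusted p under 0.05 there were 0, against 6.52%, the smallest p being 0.314 for Mrps9. Mean FPKM of the 2 groups ran from 7.37 (Mrps31) to 93.3 (Mrps21), with a median of 22.98, close to that of the large subunit.

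In the authors' deposited table Mrps21 had 98.2 FPKM with saline and 88.3 FPKM with cocaine, which was the lowest log2 fold change of the small subunit (-0.15, p = 0.341). Next in the authors' table came Mrps26 (31.8 and 28.8 FPKM, -0.15, p = 0.340) and Mrps9 (24.0 and 21.95 FPKM, -0.13). The highest values in the authors' table were those of Mrps25 (29.6 and 31.8 FPKM, 0.10, p = 0.387), Mrps18b (14.8 and 15.8 FPKM, 0.10, p = 0.663) and Mrps31 (7.14 and 7.59 FPKM, 0.09, p = 0.394). All 6 were members that did not pass. The authors' table lists the abundant Mrps33 at 66.7 and 65.1 FPKM and Mrps18c at 52.1 and 52.3 FPKM.

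Mrps34, a small-subunit protein known to be needed for the stability of that subunit, is listed at 25.5 FPKM with saline and 22.8 FPKM with cocaine in the authors' deposited table. Its record is marked as failed and carries no usable test. Mrps36 has since been assigned to the oxoglutarate dehydrogenase complex rather than the ribosome. The authors' table lists it at 12.03 and 11.9 FPKM (-0.02, p = 0.932).

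The ratio of summed FPKM, tested Mrpl over tested Mrps symbols, was 1.608 with saline and 1.604 with cocaine. It follows the symbols and not the place of each protein in the ribosome. The 48 ribosomal members with a bacterial counterpart and the 27 tested ones classed as specific to mitochondria had deposited medians of -0.03 each, with 13 and 9 genes above 0. Their median mean FPKM was 24.4 and 23.7. Mrps34, which failed the test, and the records with a pseudogene symbol were left out of that split, while Mrps36 was kept among the 27.

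**Figure D3:**
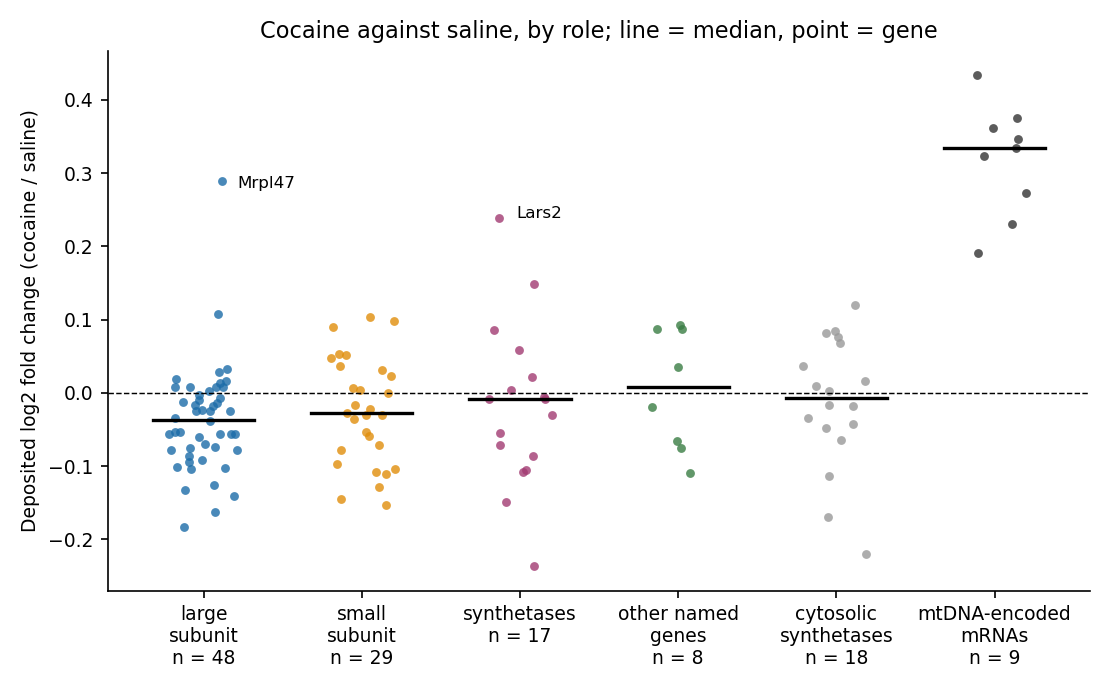
Deposited log2 fold change (cocaine over saline) by role, 1 point per tested gene with random sideways spread, the line marking the median. The ribosomal, synthetase and other named genes scatter around 0, as do the cytosolic synthetases. Lars2 and Mrpl47 stand highest among the genes described here, and the 9 tested mRNAs encoded by mtDNA lie above 0, from 0.19 to 0.43. The 4 others of the 13 have no usable value and are not drawn.

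Mitochondrial synthetases attach amino acids to the tRNAs encoded by mtDNA. Of the 17 with a symbol ending in ars2, Lars2 rose and the other 16 did not pass the authors' test, at q < 0.05 or at an unadjusted p under 0.05. All tested genes passed these thresholds at 1.44% and 6.52%. The deposited log2 fold changes of those 16 had a median of -0.02, and 5 of 16 lay above 0. The authors' deposited table lists Pars2, for proline, at 7.22 and 6.13 FPKM (-0.24, p = 0.345), the lowest value of any member. The authors' values for Nars2, for asparagine, were 11.6 and 10.5 FPKM (-0.15, p = 0.476), and for Cars2, for cysteine, 7.37 and 6.84 FPKM (-0.11, p = 0.444). Above 0 in the authors' table stood Rars2, for arginine, at 13.2 and 14.0 FPKM (0.09, p = 0.771).

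Lars2 stood apart from the other synthetases in level as well. Its saline value of 233 FPKM was 26.8 times the median of the other 16 and 12.2 times the highest of them, Hars2, for histidine, at 19.1 FPKM. It was 2.37 times that of Mrps21, the next member in the list. By the mean of both groups the lowest synthetases were Wars2, for tryptophan (2.31 and 2.34 FPKM), and Mars2, for methionine (2.96 and 2.75 FPKM). Lars2 made up 8.88% of the members' summed FPKM with saline and 10.6% with cocaine. The sum over all tested members went from 2624 to 2598 FPKM, a change of -0.967%, and without Lars2 from 2391 to 2324 FPKM, a change of -2.81%.

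The longest protein-coding Lars2 transcript of GENCODE M21 lies at chr9:123366927-123462664 on the plus strand of GRCm38, with 21 exons and 3894 bases. The stop codon starts at base 2906 of it. Bases 3278 to 3349, in the 3′ untranslated region, aligned to Gm15564, an antisense RNA of another chromosome, over 72 bases at 98.6% identity with 1 mismatch. A wider stretch, bases 3163 to 3349, aligned to AA474408 at 80.1% identity over 196 aligned positions. It had 5 mismatches, the other unmatched positions being gaps. Its E-value of 8.76e-48 was lower than the 1.3e-26 of Gm15564. In all, the search gave 15 alignments to 8 other genes, among them Phka1 at bases 3759 to 3809 with 88.2% identity. Against the 37 mitochondrial transcripts the search gave 0 alignments at an E-value under 1e-05. The sources used here do not say how reads that match more than 1 place were counted. The part of shared sequence in the level and rise of Lars2 was not tested.

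**Figure D4:**
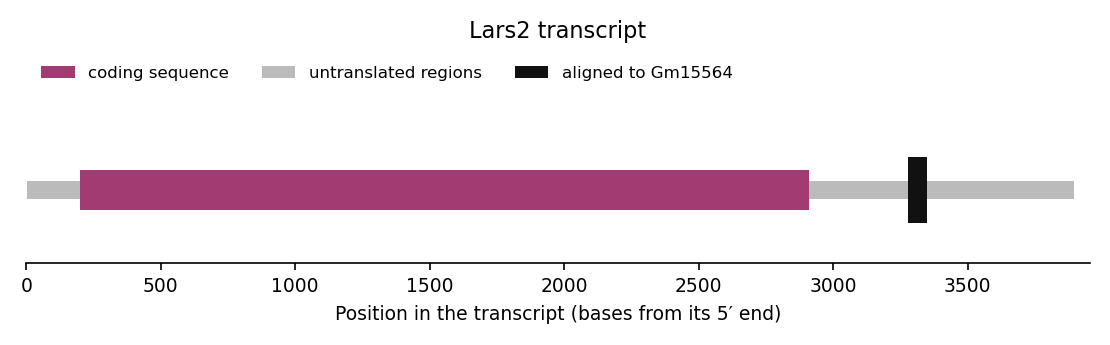
The longest protein-coding Lars2 transcript of GENCODE M21, drawn to scale in bases from its 5′ end. The tall box is the coding sequence, the thin grey boxes are untranslated regions, and the black box at bases 3278 to 3349 is the stretch aligned to Gm15564, which lies after the stop codon at base 2906. The wider stretch aligned to AA474408 is not drawn.

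Transcription of mtDNA is carried out by the RNA polymerase Polrmt with the packaging factor Tfam and the initiation factor Tfb2m. The authors' deposited table lists Tfam at 15.0 FPKM with saline and 15.98 FPKM with cocaine (log2 fold change 0.09, p = 0.603). The authors' values for Tfb2m were 5.10 and 5.42 FPKM (0.09, p = 0.750). For Polrmt the authors give 16.7 and 15.5 FPKM (-0.11, p = 0.618). Tfb1m, which methylates the small-subunit ribosomal RNA, had 3.33 and 3.54 FPKM in the authors' table (0.09, p = 0.607). By the authors' test 0 of these 4 passed at q < 0.05 and 0 at an unadjusted p under 0.05. The shares over all tested genes were 1.44% and 6.52%.

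Lrpprc binds mitochondrial mRNAs in a complex with Slirp and keeps them stable and polyadenylated. The authors' deposited table lists Lrpprc at 23.2 and 23.7 FPKM (0.04, p = 0.827). Slirp, found by its Ensembl identifier under 1810035L17Rik, had 58.9 and 58.4 FPKM by the authors' table (-0.01, p = 0.931). The catalytic subunit of the mtDNA polymerase, Polg, had 45.3 and 44.7 FPKM by the authors' table (-0.02, p = 0.901). The helicase Twnk, found under Peo1, had 6.04 and 6.10 FPKM by the authors' table (0.01, p = 0.906). The elongation factors Tufm, which delivers charged tRNAs, and Gfm1, which drives translocation, had 19.4 and 18.5 FPKM (-0.06, p = 0.318) and 19.0 and 18.02 FPKM (-0.08, p = 0.537) by the authors' table. None of these 6 passed the deposited test, at q < 0.05 or at an unadjusted p under 0.05. The shares over all tested genes were 1.44% and 6.52%.

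Other genes of the same system were counted in the same way. Of 81 listed genes 80 were found in the table and tested. By the authors' test 0 passed at q < 0.05, against 1.44% of all tested genes. At an unadjusted p under 0.05 there were 0 higher and 1 lower, against 2.3% and 4.22%. The 1 was Mrp63, a ribosomal protein now called Mrpl57, with 9.56 and 8.43 FPKM by the authors' table (-0.18, p = 0.0216, q = 0.765). The deposited median of the 80 was -0.02, and 34 lay above 0. The highest value was that of Mrm1, a methyltransferase of mitochondrial ribosomal RNA named here after its values were seen, with 2.75 and 6.57 FPKM by the authors' table (1.26, p = 0.138). By role the medians were -0.02 for 7 ribosomal proteins under other symbols, -0.03 for 14 translation factors, 0.00081 for 15 ribosome assembly factors, -0.0072 for 24 RNA processing and modification factors and -0.04 for 11 replication and nucleoid genes. The medians were 0.05 for the 2 further transcription genes, Tefm and Mterf, and 0.0030 for 7 nuclear regulators.

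The deposited log2 fold changes of the 7 nuclear regulators of this system ran from -0.14 to 0.07, with 5 within 0.1 of 0. The authors' deposited table lists the coactivator Ppargc1a at 6.69 and 7.02 FPKM (0.07, p = 0.701). The authors' values for Nrf1 were 11.0 and 9.98 FPKM (-0.14, p = 0.477) and Gabpa, the DNA-binding subunit of GABP, 15.0 and 15.3 FPKM (0.03, p = 0.915). Members with an NRF1 motif had a deposited median of -0.02 over 9 genes and those without one -0.03 over 80. With an ETS motif the median was -0.04 over 23 genes and without one -0.02 over 66. These medians are close to that of all tested genes.

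This system makes and translates the 13 mRNAs encoded by mtDNA. Of these, mt-Atp6, mt-Atp8, mt-Co1 and mt-Co3 are marked HIDATA in the authors' deposited table, are listed at 0 in both groups and have no usable value. The 9 tested mRNAs all rose by the authors' test at q < 0.05, with a deposited median of 0.33. Lars2, at 0.24, lay within their range of 0.19 to 0.43. Whether the members and these mRNAs differed from each other was not tested. The summed FPKM of the 9 rose from 6.74% to 8.15% of the total listed, which lacks the 4 mRNAs listed at 0, and the part of this shift in the members' values was not tested. Centred on the median of all tested genes, 46 of the 102 members lay above 0.

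Other nuclear sets of similar function had deposited medians near that of the members. The 79 tested cytosolic ribosomal proteins had a median of -0.02 (25 above 0, 0 higher and 1 lower at q < 0.05). The 88 nuclear-encoded respiratory chain genes had a median of -0.03 (24 above 0, 0 called at q < 0.05). The 18 tested synthetases taken as cytosolic by symbol, Gars and Kars among them, had a median of -0.0071 (9 above 0, 0 called at q < 0.05). A symbol does not show whether a gene also serves mitochondria. The highest mean level among these 18 was 70.8 FPKM, below that of Lars2. Over all tested genes 1.44% were called at q < 0.05. No difference between these sets was tested.

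Sequence shared with other genes limits several values. Of 103 member transcripts in GENCODE M21, 14 had at least 20% of their 50-base words in other genes on the same strand. On the opposite strand, where overlapping genes lie, 8 did. Mrpl23 shared 66.7% of its words with other genes, led by Mrpl23-ps1. By the authors' table Mrpl23 had 23.6 and 22.2 FPKM and Mrpl23-ps1 22.9 and 21.7 FPKM. Mrps36 shared 36.2% of its words with other genes, led by Mrps36-ps1, which is listed at 8.33 and 8.37 FPKM. Tufm shared 68.2%, led by the pseudogene Gm9755, and Tfb2m 39.6%, led by Gm1818. All words of Mrpl53 (100%) lie in other genes, led by Gm42688. On the opposite strand Mrps25 shared 73.9%, led by Nr2c2, Mrps18b 52.9%, led by Gm16279, and Mrps34 52.4%, led by Mapk8ip3. Mrpl43 shared 22.2% there, led by Twnk, so a pair of genes of this system overlaps. The sources used here do not give the strand setting, and these values are uncertain.

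Within the 102 members, Spearman's rho of the deposited log2 fold change was -0.30 with GC content, 0.18 with transcript length and -0.19 with mean FPKM. Over all tested genes the values were -0.30 with GC content, 0.18 with length and 0.05 with mean FPKM. These are correlations across genes that share the same libraries, given as a description. The median transcript of the members held 49.4% GC and 2426 bases, against 49.9% and 3390 bases for all tested genes. With the GC and length trend of all genes removed, the members' median was -0.0027 and 48 of 102 lay above 0, while Lars2 stood at 0.26.

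The labelled tissue was checked against marker genes. All 8 striatal spiny neuron markers were present, with mean levels from 64.4 to 1514 FPKM. They summed to 3199 FPKM with saline and 3129 FPKM with cocaine, 6 of 8 being below 0. By the authors' test 0 passed at q < 0.05 and 2 were lower at an unadjusted p under 0.05. By the authors' table Ttr, a choroid plexus gene, rose from 0.668 to 10.8 FPKM (log2 fold change 4.02, p and q listed as 0). The 4 choroid plexus markers of at least 1 FPKM, Ttr among them, summed to 48.4 and 60.7 FPKM, 2 of 4 being above 0 in log2 fold change. Most of that sum was Enpp2 (39.9 and 42.8 FPKM). Clic6 stood at 6.42 and 5.65 FPKM and Kl at 1.46 and 1.42 FPKM. Folr1 and Aqp1, choroid plexus markers below 1 FPKM, stood at 0.234 and 0.618 FPKM and at 0.117 and 0.158 FPKM. The 5 endothelial markers summed to 27.9 and 22.03 FPKM, 5 of 5 being below 0, and by the authors' test Cldn5 fell (10.2 to 7.46 FPKM, q = 0.00123). The 3 cortical neuron markers of at least 1 FPKM summed to 56.2 and 50.1 FPKM, 3 of 3 being below 0, and by the authors' test Slc17a7 fell (49.9 to 44.9 FPKM, q = 3.7e-05). The 6 astrocyte markers summed to 660.7 and 736.1 FPKM, 4 of 6 being above 0 and 0 passing at q < 0.05. Most of that difference lay in Slc1a2, with 377 and 453 FPKM by the authors' table (0.26, p = 0.0345, q = 0.968), a log2 fold change close to that of Lars2. Aqp4 was also higher at an unadjusted p under 0.05 by the authors' test (0.19, p = 0.0451, q = 0.999976). Gfap was lower by the authors' test (-0.16, p = 0.0166, q = 0.651) and Gja1 stood at -0.03. Slc1a3 stood at 0.0048 and Aldh1l1 at 0.02. The 6 oligodendrocyte markers summed to 2714 and 2756 FPKM and the 5 microglial markers to 92.9 and 92.8 FPKM. The part of these cell types in the Lars2 result was not tested.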

How the data were processed

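RNA of mouse nucleus accumbens was sequenced in 3 cocaine and 3 saline libraries. TopHat2 2.0.6 and Cufflinks 2.0.2 on build NCBIM37 are named in the submitters' processing notes; the sources used here do not give their settings, the annotation, the strand setting or the depth. The single table analysed gives, per the file headers, saline as first and cocaine as second sample. From the layout, the values the authors deposited for each group were taken to be FPKM. The log2 fold change, p-value and q-value were deposited by the authors, and for the tested members the first differed by at most 1.004e-05 from the log2 ratio of the FPKM values.

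The record of highest mean FPKM per symbol was used, if tested, reaching 1 FPKM in either group and not listed as infinite. Calls are at the deposited q < 0.05. The members and lists were chosen with earlier results of these data known. Named genes are the symbols of the rule and, per role, members at p under 0.05, the 3 highest and 3 lowest fold changes, and the 3 highest and 2 lowest levels; Mrpl12, Mrps34, Mrps36 and members with shared sequence were added after their values were seen. The values of 1 gene that this rule names are not reported here. The test per library named in the design as an option was not run, since the table holds group values. GC content, length and 50-base words came from GENCODE M21 transcripts, matched by identifier or symbol, the GC and length trend being the median of 10 by 10 cells. The trend and adjustment steps were tested on simulated data. Lars2 was aligned with BLAST 2.17.0, E-value under 1e-05. Python 3.11.15, pandas 2.3.3 and SciPy 1.17.1 were used. Alternatives were other FPKM minimums, pseudocounts of 1 and 0.1, all records, centring and trend removal.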

Additional observations from a re-analysis of the deposited data

How the results depend on the processing

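Lars2 was the single member called with no FPKM minimum, with a minimum of 5 FPKM (96 members), with all records, at the deposited q < 0.1 and with the deposited p-values adjusted again over tested genes of at least 1 FPKM. Its log2 fold change ran from 0.24 to 0.26 over the pseudocount, centring and trend alternatives. The members' median of -0.03 became -0.0051 when centred on the median of all tested genes and -0.0027 once the trend over GC and length was subtracted. It ran from -0.029 to -0.025 over the other alternatives, the ribosomal proteins alone included. Of 38 named members, 1 turned in sign with that trend subtracted (Vars2, 0.05) and 2 when centred (Polg, 0.0023, and Vars2, 0.01), and 0 with a pseudocount of 1. No paired analysis was possible because the table holds 1 value per group. For the same reason leaving out a library was not run. With the depth unknown, no counting error can be set beside a value.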
